A study of Parasteatoda tepidariorum with 12 samples.

Results

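Among the transcripts that stage 2 embryos of the house spider *Parasteatoda tepidariorum* held, 95 came from gene models without a usable name and were nearly gone by stage 3. They were chosen on the counts of untreated embryos alone. A gene model had to have a blank description or one that starts with "uncharacterized". In each of 2 females its stage 2 level had to be at least 8 times its stage 3 level and at least 8 times its early stage 5 level, in CPM (the counts of a gene model per 1000000 counts of the library) with 1 CPM added to every value. These 95 were found among 13965 unnamed gene models and 27990 in all. Of the 95, 75 were described only as uncharacterized and 20 had a blank description and no NCBI gene. They are called maternal for their presence at the first stage sampled, and their origin in the ovary was not measured.

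Early animal embryos run on messenger RNA made in the ovary until their own genome is switched on. In that maternal-to-zygotic transition a part of the maternal messages is degraded, first by factors that the egg already holds and later by factors that the embryo makes. Deadenylation, the shortening of the poly(A) tail, is a usual first step, followed by removal of the cap or by digestion from the 3′ end. Poly(A) selection, as used here, recovers a message less well once its tail is short, so a lower count stands for less poly(A) RNA, whether by loss of the RNA or of the tail.

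The 12 libraries came from pools of 50 to 100 whole embryos of the Osaka isolate, and both females gave embryos of both kinds. *fuchi* pRNAi embryos were laid 18 or 19 days after the first of several injections of *fuchi* double-stranded RNA into the mother, and untreated embryos were laid by the same females before any injection. In parental RNAi (pRNAi) the injected RNA depletes the transcript in the eggs laid afterwards, here that of *fuchi* (g26874), a GATA-like transcription factor gene. Embryos were taken at stages 2 and 3 and at early stage 5, that is 11, 20 and 31 h after laying, with 1 library per female, so n = 2 in every group. No library from mothers injected with a control RNA was used, so the effects of *fuchi* depletion, of injection and of the later clutch cannot be told apart. In whole embryos, fewer cells of a type and less RNA per cell cannot be told apart either.

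The library labels matched the level of the injected target. *fuchi* itself had 15.4 and 6.98 CPM in *fuchi* pRNAi embryos and 59.2 and 47.1 CPM in untreated embryos at stage 2. Its stage 3 levels were 62.8 and 55.2 CPM against 238 and 221 CPM, and its early stage 5 levels 98.0 and 86.7 CPM against 223 and 265 CPM. Library totals lay between 5662766 and 8857990 counts, so that 3 counts, the floor used for a gene model at 0, stood for 0.339 to 0.530 CPM; this covers counting error only. Of 21 gene models matched on hemocyanin, vitellogenin, spidroin or silk, 3 are silk gland factors, which are transcription factors. The other 18, products of adult tissue, summed to 4.90 to 31.0 CPM in *fuchi* pRNAi libraries and 8.85 to 27.9 CPM in untreated libraries. The highest value of each kind was that of the second female at stage 3, and the 3 were left out after the data were seen.

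Most members were spliced gene models of ordinary length. Their summed exon length, which the deposited counts and RPKM values give together, had a median of 1767 bases (quartiles 988.5 and 2719, range 251 to 8199). Described gene models that met the same ratios (173 of 14025) had a median of 1998 bases. Only 9 members (9.47%) had a single exon, against 3 (1.73%) of the described ones and 9.05% of the 1415 unnamed gene models that were present at stage 2 but not cleared. The 20 members with a blank description were shorter than the 75 uncharacterized ones, with median lengths of 852.5 and 2142 bases. Clearance was also more frequent among unnamed transcripts. Of 1510 unnamed gene models with at least 7 CPM in both untreated stage 2 libraries 6.29% met the ratios, as did 2.45% of 7049 described ones. These shares describe the choice itself and carry no test.

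The 95 members lay on 87 scaffolds of the Ptep_1.0 assembly. They carried 74 distinct NCBI genes, of which 65 are in the RefSeq gene table of a later assembly. For 3 NCBI genes 2 members each were listed, and 2 members carried 2 NCBI genes each, so counts of these members may be parts of 1 gene or sums over 2. Counts of 6 members that overlap another gene model, 4 on the same strand and 2 on the opposite strand, are uncertain, because the strand setting of the counting is not given in the sources used here.

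Together the members took a few percent of all counts at stage 2 and a far smaller share later, in both kinds of embryo. In *fuchi* pRNAi embryos they took 2.18% (first female) and 2.72% (second female) of all counts at stage 2, 0.112% and 0.252% at stage 3, and 0.0167% and 0.0183% at early stage 5. In untreated embryos they took 2.43% and 2.15% at stage 2, 0.0970% and 0.0793% at stage 3, and 0.0194% and 0.0167% at early stage 5. The stage 2 and early stage 5 shares of the *fuchi* pRNAi libraries were thus near the untreated ones, and the second female's stage 3 library held the largest stage 3 share of the 4. The untreated values chose the members and are given without a test.

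**Figure D1:**
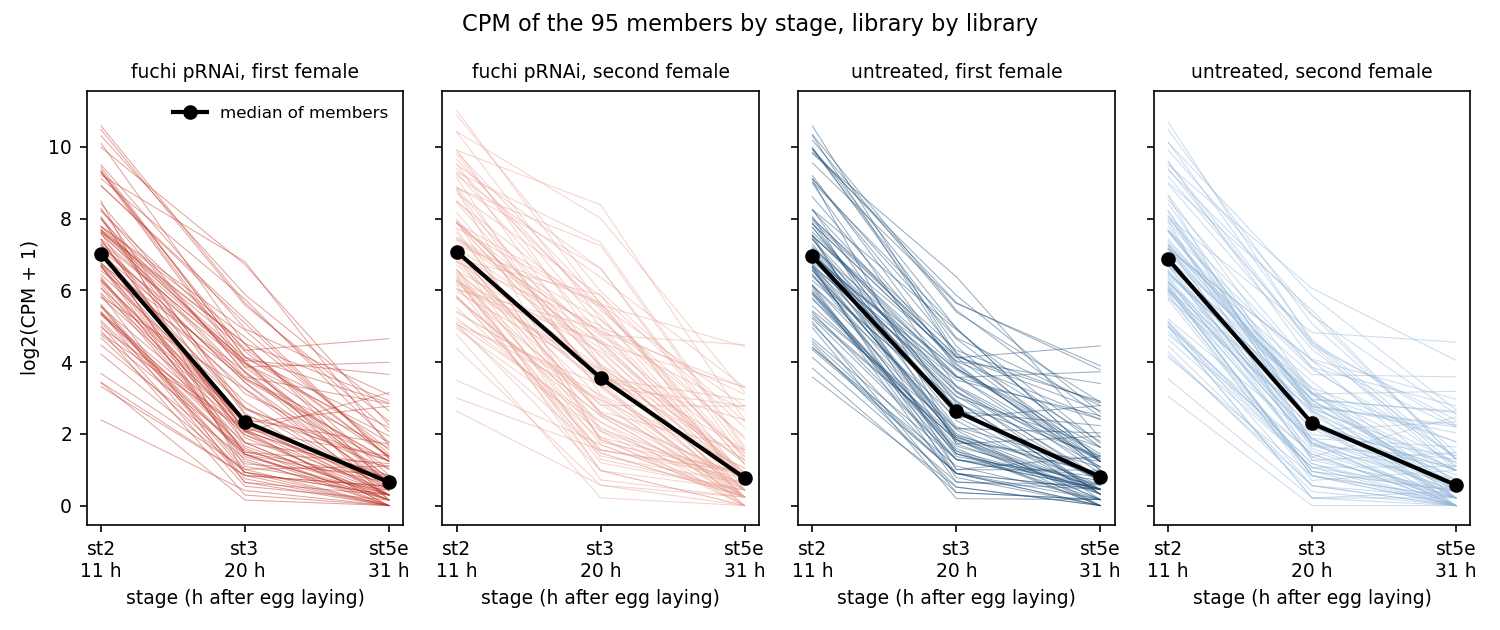
Level of each of the 95 members as log2(CPM + 1) by stage (st2 is stage 2, st3 stage 3 and st5e early stage 5), with hours after laying under each. Each panel holds 1 female of *fuchi* pRNAi (left pair) or untreated (right pair) embryos, thin lines are members and the black line joins their medians. The median at stage 3 stands higher in the second *fuchi* pRNAi female (10.8 CPM) than in the first (4.06 CPM) and in the untreated females (5.17 and 3.90 CPM).

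Since the rule used only untreated embryos, the fall could be tested in the 6 *fuchi* pRNAi libraries, whose counts played no part in the choice. These libraries came from later clutches of the same 2 females, so they are not independent of the choice. Deviations from group means by female correlated between both kinds of embryo, with 0.381 to 0.550 within a stage. The test therefore asks whether the fall recurred in later clutches, and other females were not tested. At stage 3, 84 of the 95 members were lower than at stage 2 and none was higher (edgeR quasi-likelihood test, Benjamini-Hochberg adjusted p under 0.01 over 13621 gene models). Among all gene models tested, 12.2% were lower. The median log2 fold change of the members was −3.98, a 15.7-fold lower level, against 0.01 over all gene models. All 95 estimates were negative, and 94 had an unadjusted p under 0.05, as did 48.3% of all gene models. All members passed the filter on low values, which their stage 2 level alone ensured. For the 173 described gene models chosen in the same way, 162 were lower with a median of −3.86, and the 2 lists were not tested against each other.

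By early stage 5 the members were lower still. All 95 were lower than at stage 2, with a background of 23.5% and a median log2 fold change of −7.50 (−7.40 with the 6 members at 0 counts held at the floor). Between stage 3 and early stage 5, 53 of 95 were lower and 0 were higher, against 10.5% lower and 6.73% higher among all gene models, with a median of −3.21. With DESeq2 none was higher either, and 61 were lower, against 13.3% of all gene models. In edgeR 75 of the 95 had an unadjusted p under 0.05, as did 42.7% of all gene models. Described gene models of the same kind had medians of −5.98 (172 of 173 lower) and −2.27 (75 of 173 lower). The count of 53 leaned on both early stage 5 libraries, and so did the share called over all gene models. The members' median was −3.27 without the first female's early stage 5 library and −3.52 without the second female's. With library totals in place of TMM (trimmed mean of M-values) factors, the median of all gene models moved to −0.66 (early stage 5 against stage 2) and −0.52 (against stage 3) and the members' counts were 95 and 62, against 31.5% and 17.3% of all gene models. Over all gene models the split was then 4295 lower and 1851 higher in place of 3203 and 2563 for the first contrast, and 2354 lower and 460 higher in place of 1436 and 917 for the second.

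**Figure D2:**
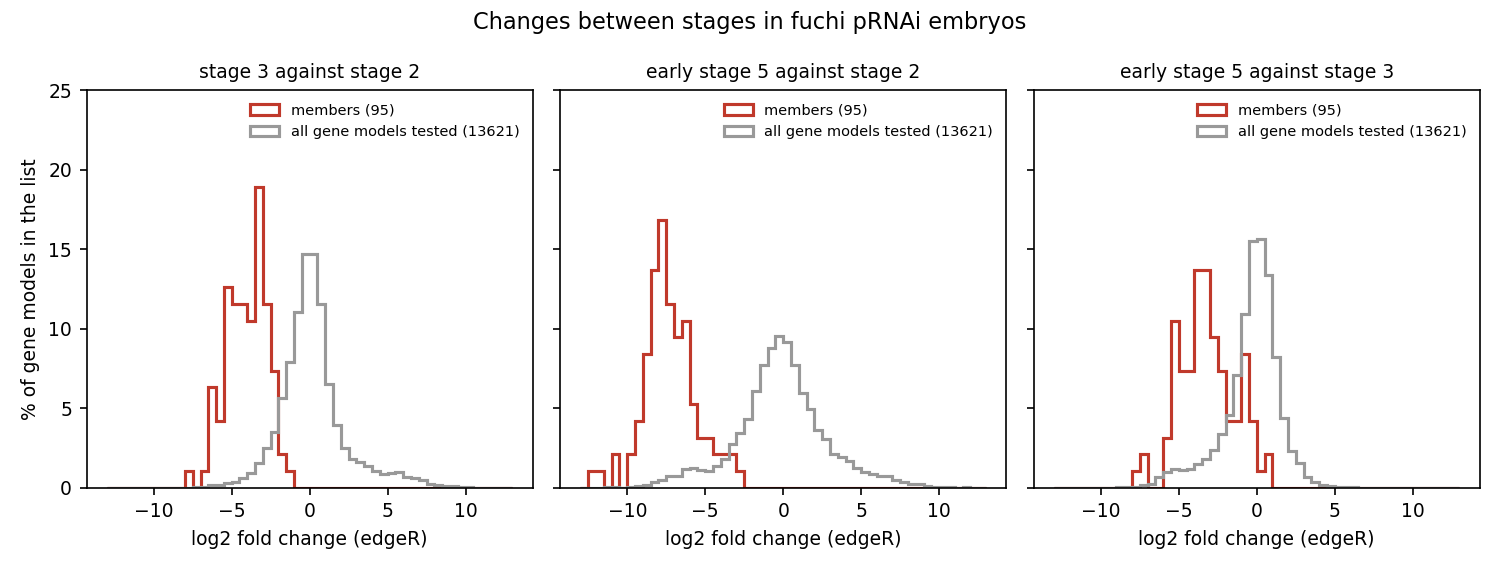
Share of gene models (%) by log2 fold change between 2 stages in *fuchi* pRNAi embryos, for the 95 members (red) and all 13621 gene models tested (grey), in bins of 0.5. The members' medians are −3.98, −7.50 and −3.21 from left to right, while all gene models centre near 0.

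The 10 members with the most stage 2 counts made up 44.3% and 41.8% of the members' counts in the *fuchi* pRNAi stage 2 libraries. None of them has a described function. The first 4 exceeded 1000 CPM in both stage 2 libraries after *fuchi* pRNAi. The gene model g26240 (LOC107437399, scaffold 146, 312375 to 320594, minus strand, 2678 bases of exon) had 1429.7 and 1892 CPM at stage 2, 47.1 and 61.6 CPM by stage 3, then 4.10 and 4.06 CPM by early stage 5 in *fuchi* pRNAi embryos. In untreated embryos it had 1535 and 1427 CPM, then 17.7 and 32.6 CPM, then 2.46 and 1.78 CPM. Its log2 fold change at stage 3 against stage 2 after *fuchi* pRNAi was −4.88 ± 0.27 (SE, adjusted p = 1.5e-05).

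Per length of exon, g25922 (LOC107457491, scaffold 128, 1700266 to 1746631, plus strand) was the most abundant member at stage 2, with 628 and 839 RPKM in *fuchi* pRNAi embryos and 538 and 675 RPKM in untreated embryos. RPKM divide the reads of a gene model by its length in kilobases and by the library's mapped reads in units of 1000000. Its CPM values after *fuchi* pRNAi were 1537 and 2080.5 at stage 2, 49.4 and 47.4 at stage 3 and 3.19 and 5.83 at early stage 5. Both females agreed closely here, and the stage 3 change was −5.17 ± 0.31. The untreated values were 1273 and 1658 CPM, 16.5 and 22.3 CPM, and 1.35 and 3.73 CPM.

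The long member g25552 (LOC107442643, 8114 bases of exon) behaved alike in both kinds of embryo at stage 3. It had 1097 and 1361 CPM at stage 2, 21.5 and 35.6 CPM by stage 3, then 0.798 and 1.59 CPM by early stage 5 after *fuchi* pRNAi. Untreated embryos had 1005 and 1126 CPM, 29.9 and 23.7 CPM, and 1.35 and 1.46 CPM, so the stage 3 values of both kinds overlapped. Its fall of 9.58 on the log2 scale by early stage 5 (−9.58 ± 0.47) was the deepest among the 69 members with more than 3 counts left in the early stage 5 libraries after *fuchi* pRNAi. The other 26 members had 3 counts or fewer there.

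In g6708 (LOC107454981, 5860 bases of exon) the 2 females parted after *fuchi* pRNAi. It had 1267 and 1377 CPM at stage 2, 58.1 and 256.5 CPM by stage 3, then 5.24 and 7.95 CPM by early stage 5, against 1298 and 1116 CPM, 42.6 and 56.8 CPM, and 4.55 and 5.35 CPM in untreated embryos. Only the second female's stage 3 value stood well above the untreated ones, by early stage 5 the levels were close again, and the fitted stage 3 change was −2.998 ± 0.58 (adjusted p = 0.0035). For g17354 (LOC107443595) the stage 2 values were 1016 and 959 CPM after *fuchi* pRNAi against 922 and 966 CPM in untreated embryos. Its stage 3 values were 104 and 334 CPM against 57.3 and 39.3 CPM, which did not overlap. Other members did not overlap either, but the rule held the untreated stage 3 values low, so nothing is read from this. At early stage 5 g17354 had 3.76 and 4.24 CPM against 5.04 and 1.46 CPM.

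The remaining 5 of the 10, g9253, g15333, g12857, g9248 and g26617, had between 590.0 and 922 CPM at stage 2, between 13.4 and 161 CPM at stage 3 and between 0.706 and 8.83 CPM at early stage 5 in *fuchi* pRNAi embryos. The upper stage 3 value was the second female's g9253, whose first female had 18.6 CPM, and g9253 was the only one of the 10 whose stage 3 fall did not pass the threshold (−2.73 ± 0.75, adjusted p = 0.018). It did pass with a block for the female (adjusted p = 1.3e-05).

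**Figure D3:**
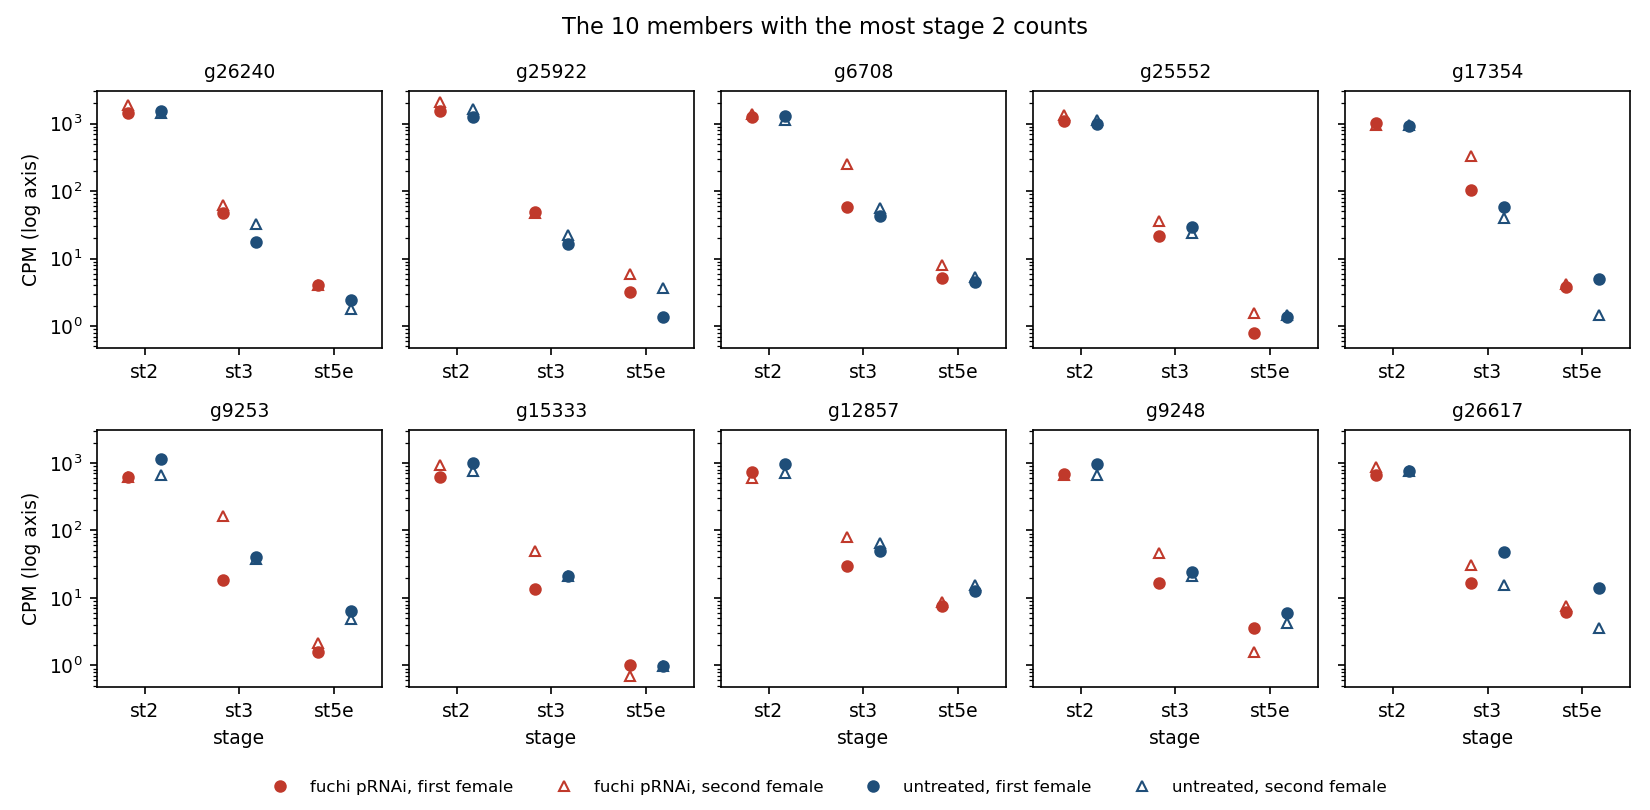
CPM (log axis) of the 10 members with the most stage 2 counts, by stage. Red is *fuchi* pRNAi and blue untreated, filled circles are the first female and open triangles the second. At stage 3 the open red triangle stands apart for g6708 (256.5 CPM), g17354 (334 CPM) and g9253 (161 CPM).

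The deepest falls at stage 3 after *fuchi* pRNAi left almost nothing. The member g27534 (LOC107442094, 1411 bases in a single exon on scaffold 221) had 360 and 448 CPM at stage 2 and only 0.790 and 2.41 CPM at stage 3, a change of −8.00 ± 0.48. Untreated embryos had 540 and 397 CPM at stage 2, with 2.30 and 2.19 CPM at stage 3. Next came g24882, which had 2 counts left in both stage 3 libraries together against 255 at stage 2, a 130.3-fold lower level with a 95% counting interval of 35.7 to 1081. The members g4381, g21219, g15723 and g15260 followed, with 48.1 to 243 CPM at stage 2, 0.642 to 3.37 CPM at stage 3 and changes of −6.42 to −6.18. These transcripts were close to 0 in both females.

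At the other end, 11 members did not pass at stage 3, with estimates of −3.44 to −1.46 and adjusted p of 0.012 to 0.17. The 6 smallest estimates belonged to g6925, g24494, g3752, g17354, g12143 and g26708, of which g3752, g17354 and g26708 passed. In g6925 the first female had 30.3 CPM at stage 2 and 3.39 CPM at stage 3 after *fuchi* pRNAi, whereas the second had 64.3 and 29.4 CPM. Untreated embryos had 42.2 and 63.4 CPM at stage 2, with 3.45 and 5.93 CPM at stage 3. The second female after *fuchi* pRNAi thus kept 45.7% of its stage 2 level. The steady exception was g3752 (LOC107450988), which had 595 and 461 CPM at stage 2, then 111 and 151 CPM by stage 3 after *fuchi* pRNAi, against 900 and 515 CPM, then 82.4 and 42.6 CPM in untreated embryos. It passed with −1.96 ± 0.26 (adjusted p = 0.00050) and had 2.17 and 1.94 CPM at early stage 5. With a block for the female, 95 of the 95 members were lower at stage 3, against 17.6% of all gene models.

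After *fuchi* pRNAi the second female kept more of the members at stage 3 than the first. The median share of the stage 2 CPM left at stage 3 was 4.89% in the first female and 6.97% in the second after *fuchi* pRNAi, and 3.78% and 3.22% in untreated embryos. More than 10% was left for 12 and 38 members after *fuchi* pRNAi and for 1 and 3 members in untreated embryos. The rule itself held the untreated shares low, while the *fuchi* pRNAi shares were free, so the counts of both kinds are not a comparison. By early stage 5 the median was 0.396% and 0.342% after *fuchi* pRNAi and 0.546% and 0.320% in untreated embryos, so the 4 medians lay close together. Applied to the *fuchi* pRNAi libraries, the rule that chose the members was met by 86 in the first female, 60 in the second and 59 (62.1%) in both. The described gene models met it in both females for 116 of 173 (67.1%). The fall to stage 3 in the 2 females still went in parallel across members (Pearson r = 0.741, Spearman rho = 0.739 over 95 members, given as a description, since members of 1 library share its depth and scaling).

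**Figure D4:**
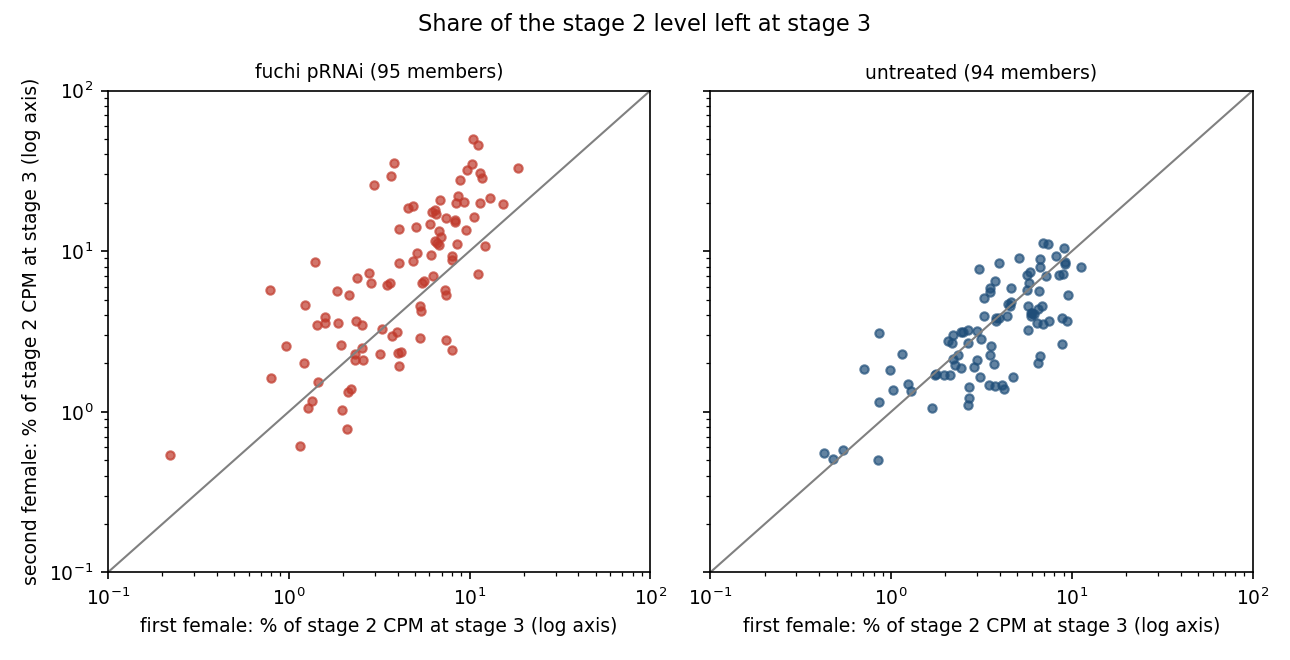
Percent of the stage 2 CPM that was left at stage 3 (log axes), second female against first, for each member in *fuchi* pRNAi (left, 95 members) and untreated embryos (right, 94 members, since 1 had 0 counts in a stage 3 library). The grey line marks equal shares. After *fuchi* pRNAi most points lie above the line, where 38 members kept over 10% in the second female and 12 in the first.

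At stage 3 the second female's ratio of *fuchi* pRNAi to untreated CPM stood apart for more than the members. The ratio of *fuchi* pRNAi to untreated CPM (1 added to both) at stage 3 had a median of 1.02 over the members in the first female and 2.12 in the second. It was above 2 for 5 and 51 of the 95 members. Over the 173 described gene models the medians were 1.03 and 1.85. Of all 8559 gene models with at least 7 CPM in both untreated stage 2 libraries, 128 in the first female and 956 in the second were above 2, while the median was 1.11 in both. Both stage 3 libraries of the second female enter this ratio. Second-to-first ratios at stage 3 over the 8559 were above 2 for 314 and below 0.5 for 290 after *fuchi* pRNAi. In untreated embryos they were above 2 for 111 and below 0.5 for 396. Without the second female's *fuchi* pRNAi stage 3 library the members' median change at stage 3 after *fuchi* pRNAi was −4.59 in place of −3.98. The largest second-to-first ratios among members at stage 3 after *fuchi* pRNAi were 8.26 for g9253, 6.93 for g6925 and 6.16 for g21470, the last chosen here after its values were seen.

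Direct comparison of *fuchi* pRNAi with untreated embryos, in the edgeR fit without a block, found no member past the threshold. The rule used the untreated values, high at stage 2 and low later, so the counts and values of this comparison are given beside the background and nothing is read from them. At stage 2, 0 of 95 were called, with a median log2 fold change of 0.04 and a background of 0% of 12079 gene models. The injected target *fuchi* was not called in this fit either (−2.27 ± 0.41, adjusted p = 0.98), so the absence of calls at stage 2 says little. An unadjusted p under 0.05 was found for 8 members and 413 gene models (3.42%). DESeq2 called 0 members and 0.108% of all gene models. With a block for the female 2 were called, g12473 higher and g2565 lower, against 0.770% of all gene models.

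At stage 3, 0 of the 91 members that passed the filter were called, with a background of 0.270%. An unadjusted p under 0.05 was found for 19 members and 9.30% of all gene models. The median was 0.69, and 10 estimates were negative. DESeq2 called 1, g17354, against 0.968% of all gene models. With a block for the female 9 were higher, against 2.60% of all gene models called in either direction. The median was 0.04 with 0 calls (background 0.238%) without the second female's *fuchi* pRNAi library, and 1.14 with 4 calls (background 0.319%) without the first female's. The 4 were g17354, g21470, g24494 and g6708.

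At early stage 5, only 49 members reached 1 CPM in any of the 4 libraries. Of these 0 were called, with a background of 3.12%, and the median was −0.10. An unadjusted p under 0.05 was found for 8 members and 14.0% of all gene models. DESeq2 called 0 members and 4.36% of all gene models. With a block for the female 3 were called, against 7.98% of all gene models, g12473 higher and g20080 and g21470 lower. The member g12473 (LOC107437641) had 14.9 and 21.4 CPM in *fuchi* pRNAi embryos and 5.28 and 6.81 CPM in untreated embryos. For g21470 the values were 0.684 and 1.77 CPM in *fuchi* pRNAi embryos and 6.27 and 5.84 CPM in untreated embryos.

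For a few members the estimated change after stage 3 was near or above 0. After *fuchi* pRNAi 53 members were below 1 CPM in both early stage 5 libraries and 10 were at 5 CPM or more in both, and in untreated embryos the counts were 51 and 7. The member g12902 (LOC107438203), 1 of the 3 just inside the threshold of the rule, had 204 and 234 CPM at stage 2, 19.1 and 47.2 CPM by stage 3, then 24.2 and 20.7 CPM by early stage 5 after *fuchi* pRNAi. In untreated embryos it had 180.3 and 261 CPM, 16.4 and 27.3 CPM, and 20.9 and 22.5 CPM. It had about the same value in all 4 early stage 5 libraries, above stage 3 in the first female and below it in the second. Its fitted change there against stage 3 after *fuchi* pRNAi was −0.13 ± 0.40 (adjusted p = 0.83). Estimates above 0 were found for 3 members, g26842 (0.68 ± 0.34), g25776 (0.65 ± 0.50) and g12473 (0.30 ± 0.47), and none passed. With library totals in place of TMM factors the largest estimate of any member was 0.25. Without the second female's stage 3 library the estimate of g12902 was 0.72, and 87 of the 95 members had a negative one in place of 92.

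At 0 counts in both early stage 5 libraries after *fuchi* pRNAi were 6 members. Against the floor of 3 counts over both libraries, g21938 was at least 397.9-fold lower than at stage 2, g24206 at least 327-fold, g2565 at least 184-fold, g22213 at least 136-fold, g24882 at least 83.1-fold and g4468 at least 22.5-fold. The last, g4468, entered the list with the lowest margin. The smallest of its ratios in the rule was 8.28, as for g12902, and that of g5558 was 8.36, while g15259, g15670 and g8765 just missed with 7.96, 7.95 and 7.91. Those 3 had 6.60 to 212 CPM at stage 2 and 0.113 to 14.1 CPM at stage 3 after *fuchi* pRNAi, values within the span of the members.

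Pairs of members lay next to each other on 4 scaffolds, with starts within 50000 bases. On scaffold 397, g2564 (672336 to 699633) and g2565 (700460 to 739013), both on the minus strand and both LOC107449059, are listed as 2 transcript variants of 1 gene. They had 55.4 and 61.3 CPM (g2564) and 41.6 and 34.3 CPM (g2565) at stage 2 after *fuchi* pRNAi, against 120.2 and 87.7 CPM and 98.8 and 54.1 CPM in untreated embryos. At stage 3 they had 8.47 and 12.04 CPM (g2564) and 2.03 and 6.58 CPM (g2565) against 8.04 and 7.80 CPM and 3.01 and 4.21 CPM. At stage 2 both lay below the untreated values without overlap. Other members lay below or above both untreated values, and the share over all gene models was not counted. In the edgeR fit without a block neither g2564 nor g2565 was called at stage 2 (adjusted p = 0.98 for both). The rule asked for high untreated stage 2 values, so nothing is read from this. On scaffold 128, g25921 and g25922 face away from each other on opposite strands with 8160 bases between them. The changes at stage 3 after *fuchi* pRNAi were −4.74 ± 0.44 (g25921) and −5.17 ± 0.31 (g25922). On scaffold 1004, g9248 and g9253 lie 41465 bases apart on the minus strand and changed by −4.40 ± 0.49 and −2.73 ± 0.75. On scaffold 1066, g9755 and g9753 lie on the plus strand, and only g9755 passed (−5.93 ± 0.43, against −2.58 ± 0.67 for g9753).

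A member also shares the scaffold of the injected gene. The transcript g26872 (LOC107439680, scaffold 177, 232566 to 238291), named here for its position after its values were seen, lies upstream of *fuchi* (310446 to 328722, same strand). It had 638 and 970 CPM at stage 2, 14.8 and 20.4 CPM by stage 3, then 1.596 and 1.24 CPM by early stage 5 in *fuchi* pRNAi embryos. In untreated embryos it had 588 and 405 CPM, 13.3 and 7.96 CPM, and 1.72 and 1.30 CPM. Unlike *fuchi*, which had more CPM at stage 3 than at stage 2, g26872 was nearly gone at stage 3. At stage 2 and stage 3 the *fuchi* pRNAi values of g26872 did not lie below the untreated ones, but the rule held the untreated stage 3 values low. At early stage 5 each female had slightly less after *fuchi* pRNAi, and the values of both kinds overlapped. An effect of the injection on g26872 was not tested apart from the fits over all gene models.

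Of 67 gene models listed for deadenylation, decapping, exosome, Argonaute and RNA-binding regulators, 61 were tested in *fuchi* pRNAi embryos. At stage 3 against stage 2, 11 of the 61 were lower and 9 of the 61 higher. Of all gene models 12.2% were lower and 11.2% higher. The median of the list was 0.24 on the log2 scale against 0.01 over all gene models. DESeq2 had 16 of the 61 higher, against 16.1% of all gene models. By early stage 5, 16 of the 61 were lower and 13 of the 61 higher than at stage 2, against 23.5% and 18.8% of all gene models. With library totals the counts were 22 and 8 of the 61, against 31.5% and 13.6% of all gene models. Nothing particular to the list is read from these counts. Lower at stage 3 were a CPEB1-B-like gene (g12413, −3.27 ± 0.25), whose protein binds messages with a cytoplasmic polyadenylation element, and CNOT4 (g18261, −3.05 ± 0.23), a ubiquitin ligase of the CCR4-NOT complex. A gld-2-like poly(A) polymerase (g17116, −2.93 ± 0.22), which lengthens tails, and a Smaug homolog (g16338, −1.58 ± 0.24), which in the fly directs maternal messages to deadenylation, were lower as well. Higher at stage 3 were the exosome subunits RRP44 (g18644, 1.65 ± 0.22), RRP41 (g3822, 1.51 ± 0.25) and CSL4 (g15214, 1.12 ± 0.24), parts of the complex that digests RNA from the 3′ end, and piwi-like protein 1 (g11104, 1.26 ± 0.19). These examples were picked among the called genes after their values were seen. The exosome subunits RRP45, RRP40, RRP46, RRP4 and RRP42 were not called (adjusted p 0.024 to 0.48). Among CCR4-NOT subunits, CNOT2 (g27364, −2.58 ± 0.37) was also lower. CNOT1, CNOT6 and CNOT10 had estimates above 0 and CNOT3, CNOT7 and CNOT11 below 0, none of them called. The ratios that chose the members were met by 1 of the 67 and by 173 of all 14025 described gene models.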

How the data were processed

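The deposited table of raw counts, made by the authors with htseq-count (HTSeq 0.6.1p1 per the labels) on AUGUSTUS gene models of Ptep_1.0, holds 12 libraries. The deposited RPKM values, also made by the authors, scale counts by exon length, and count divided by RPKM gave whole lengths for all 95 members. For these libraries, aligner and strand setting: not given in the sources used here. Members, gene lists and tests were chosen with earlier results of these data known. The rule for named members took the 10 with the most untreated stage 2 counts, the 6 deepest and 6 smallest falls at stage 3 after *fuchi* pRNAi, any called against untreated embryos, the 3 on either side of the threshold, and pairs within 50000 bases (at most 6 members). A grouping by protein family was not run.

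Stage contrasts were fitted on the 6 *fuchi* pRNAi libraries, and treatment contrasts on the 4 libraries of a stage, with edgeR 4.0.16 (R 4.3.3): TMM factors, at least 1 CPM in 1 library, quasi-likelihood test, adjusted p under 0.01. SE is the log2 fold change over the square root of F. The fits were tested on simulated data. Alternatives were DESeq2 1.42.0, library totals, no filter, 1 fit of 12 libraries, leaving out each library, and a block for the female. Replicate numbers mark the same female in all groups per the labels, and deviations from group means correlated by female with 0.132 to 0.550, so the numbers pair the samples. Replicates differed by more than counting noise (mean chi-square per gene model 28.0 to 44.1). p-values measure the spread between 2 females.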

Additional observations from a re-analysis of the deposited data

How the results depend on the processing

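Against stage 2, all 95 members had negative estimates after *fuchi* pRNAi under every alternative run. Between stage 3 and early stage 5, 92 did in the main fit, 93 with library totals and 91 without either early stage 5 library. Without the second female's stage 3 library 87 did, and the other alternatives also gave 92. Calls numbered 80 to 92 at stage 3, 91 to 95 at early stage 5 against stage 2, and 24 to 62 at early stage 5 against stage 3 when each library was left out in turn. Of the named members, g17354 lost its stage 3 call (adjusted p 0.013 to 0.019) without either *fuchi* pRNAi library of stage 2 or of early stage 5, and g5558 (0.017 and 0.019) without the first female's stage 3 or stage 2 library, while g9253, g6925, g24494, g12143 and g4468 passed with the replicate block. The count of calls against untreated embryos, 0 at each stage, moved with the fit. The share of all gene models called in either direction is given after each count. At stage 2 it was 2 with the replicate block by female (0.770%) and 1 without a filter on low counts (0.170%). At stage 3 it was 9 with the replicate block (2.60%), 1 with DESeq2 (0.968%) and 4 without a filter (1.05%). With a library left out, the members' median at stage 3 was 0.04 to 1.14. At early stage 5 the count was 3 with the replicate block (7.98%) and 3 without a filter (4.95%). In 1 fit of all 12 libraries it was 2 (2.26%). The rule used the untreated values, so nothing is read from these counts. The list itself held 209 gene models at a ratio of 4 and 46 at a ratio of 16, all 46 among the 95, 135 with 0.1 CPM added, 87 with TMM factors, and 117 or 132 from 1 female alone. With RPKM it held 94, of which 86 were among the 95. At early stage 5 depth was the limit, since 34 and 38 members had fewer than 3 counts in the *fuchi* pRNAi libraries.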
